A study of Mus musculus with 284 samples.

Results

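The genes described here are Itgb1, Itga2, Itga3, Itgav, Itgb5 and Itgb6, which encode chains of the beta1 and alpha-v integrins, and Ptk2, Ilk, Tln1 and Vcl, which encode proteins of the focal adhesion. They were chosen by name, and all 10 matched exactly 1 gene ID each among the 54247 gene IDs of the deposited table. They were followed through 284 single cells of mouse skin tumours, read with Smart-seq2, a full-length single-cell RNA-seq method. The cells came from 4 mice, with 69 cells of WT1 and 88 of WT2, labelled wild type, and 73 cells of KO1 and 54 of KO3, labelled Sirt6-/-. The labels describe them as tumour propagating cells, meaning tumour cells that can seed a new tumour.

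All 4 mice were of the C57BL/6 strain, carried the ROSA26-LSL-eYFP reporter and Keratin14-Cre, and received DMBA once at 8 weeks of age and then TPA repeatedly for more than 20 weeks. DMBA is a carcinogen and TPA a tumour promoter. The genotype label was the only difference that the labels give between the groups. YFP marks cells in which keratin 14-driven Cre was active, or whose ancestors had it, and the gate took cells with YFP, CD34 and CD49f. CD49f is integrin alpha6, a chain that also pairs with beta1, so the product of Itga6 was part of how the cells were chosen. The mouse was the replicate, with 2 mice per genotype label, and the labels do not say how many tumours a mouse gave. No plate held cells of both labels, so plate and genotype cannot be told apart.

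An integrin is a pair of an alpha and a beta chain that spans the plasma membrane and ties the matrix outside to the actin cytoskeleton inside. In the epidermis, beta1 integrins sit on basal cells, where alpha3-beta1 binds laminin-332 of the basement membrane and alpha2-beta1 binds collagen. Alpha-v pairs with several beta chains: alpha-v-beta5 binds vitronectin, and alpha-v-beta6, an epithelial integrin known from wounds and carcinomas, binds fibronectin and tenascin-C and activates latent TGF-beta. At the focal adhesion, talin binds the tail of the beta chain and actin, vinculin reinforces that link, and focal adhesion kinase and integrin-linked kinase pass the signal on.

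Total counts per cell ranged from 523999 to 1684464, and detected genes from 3235 to 8470. The median number of detected genes was 7009 in WT1 and 5783.5 in WT2, against 6367 in KO1 and 6614.5 in KO3. The keratinocyte genes Krt14 and Krt5 had counts in 100% of cells, and Trp63 in 97.5%. Cd34, the other gate marker, had a count in 72.9% of cells. Cells with at least 2 markers of another cell type were few: between 1 and 5 per mouse for fibroblasts, 0 and 2 for endothelial cells, 0 and 4 for immune cells, 0 for melanocytes, and 0 and 7 for muscle or fat. The transcript level of Sirt6 did not follow the labels, with 16.7 CPM in WT1 and 25.2 in WT2, against 27.0 in KO1 and 14.5 in KO3. KO1 and KO3 are therefore called the mice labelled Sirt6-/- throughout, and CPM stands for a gene's share of the summed counts of a mouse, scaled to parts in 1000000.

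Itgb1, the common partner of most alpha chains (ENSMUSG00000025809.15, chromosome 8, 128685654 to 128733200, plus strand; this and the positions that follow are on GRCm38), was the most abundant of the 10 genes per length of exon. Its level was 160 CPM per kilobase of exon in WT1 and 117 in WT2, against 93.9 in KO1 and 75.8 in KO3, a mean of 112 ± 36.4 (SD, n = 4 mice). Itga3 (ENSMUSG00000001507.16, chromosome 11, 95044474 to 95076801, minus strand) came next, with a mean of 48.8 ± 16.5 on the same scale. Itgb1 thus had 2.29 times the level of Itga3 per length, and its lowest mouse lay above the highest mouse of Itga3. Itga3 itself lay above every later gene in all 4 mice.

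The other integrin chains were far scarcer per length. Itga2 (ENSMUSG00000015533.9, chromosome 13, 114833081 to 114932100, minus strand) had 2.25 ± 0.743 CPM per kilobase, and the mean of Itga3 was 21.7 times as high. Itgav (ENSMUSG00000027087.11, chromosome 2, 83724397 to 83806916, plus strand) had 3.49 ± 1.00, so that Itga3 stood 14.0 times above it. The beta partners Itgb5 (ENSMUSG00000022817.15, chromosome 16, 33829665 to 33949338, plus strand) and Itgb6 (ENSMUSG00000026971.15, chromosome 2, 60598292 to 60722643, minus strand) had 4.01 ± 0.398 and 3.00 ± 0.854. Per length, Itgb1 exceeded Itgb5 by 27.9 times and Itgb6 by 37.2 times.

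Of the adhesion plaque genes, Tln1 (ENSMUSG00000028465.16, chromosome 4, 43531519 to 43562691, minus strand) was highest per length, with 10.3 ± 3.76 CPM per kilobase. Vcl (ENSMUSG00000021823.10, chromosome 14, 20929398 to 21033676, plus strand) had 5.80 ± 1.56, and Ptk2 (ENSMUSG00000022607.17, chromosome 15, 73205102 to 73423280, minus strand) had 5.64 ± 2.86. From Tln1 down to Itga2, the ranges of neighbours in the order Tln1, Vcl, Ptk2, Itgb5, Itgav, Itgb6, Itga2 overlapped over the 4 mice. Within each of the 4 mice, Tln1 still lay above Vcl and Itgb6 above Itga2, while the steps between Vcl, Ptk2, Itgb5, Itgav and Itgb6 held in 2 or 3 mice. With the longest transcript as the length, Ptk2 moved from rank 5 to rank 3, with 14.2 CPM per kilobase, while Itgb1 and Itga3 kept ranks 1 and 2. Parts of Vcl and Itgav also overlap genes on the other strand: 25.5% of the exon bases of Vcl are shared with Ap3m1 and 5.90% of those of Itgav with Gm13684, and the counting is not stated to use strand.

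Ilk, integrin-linked kinase (ENSMUSG00000030890.16, chromosome 7, 105736592 to 105742925, plus strand), was listed near 0, with 0.0908 CPM in WT1 and 0.108 in WT2, against 0.196 in KO1 and 0.0603 in KO3. It had a count in 14 of 284 cells. This value is uncertain, because 89.7% of the exon bases of Ilk are shared with genes on the other strand, 76.7% with Taf10 and 12.9% with Rrp8. Rrp8 had between 68.1 and 121 CPM per mouse, and Taf10 between 2.67 and 9.12. Genes for proteins that bind integrin-linked kinase or its partners, chosen for this comparison after their values were seen, lay on both sides of Ilk. Parvb and Lims2 were listed at 0 CPM in every mouse, while Parva, Lims1 and Rsu1 were well above Ilk. Parva, the actin-binding parvin, had 211 CPM in WT1 and 215 in WT2, against 200 in KO1 and 81.0 in KO3. Lims1 (PINCH1) had between 51.2 and 71.1 CPM and Rsu1, a partner of PINCH, between 59.3 and 90.1. The part of the overlap in the low value of Ilk was not tested.

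**Figure D1:**
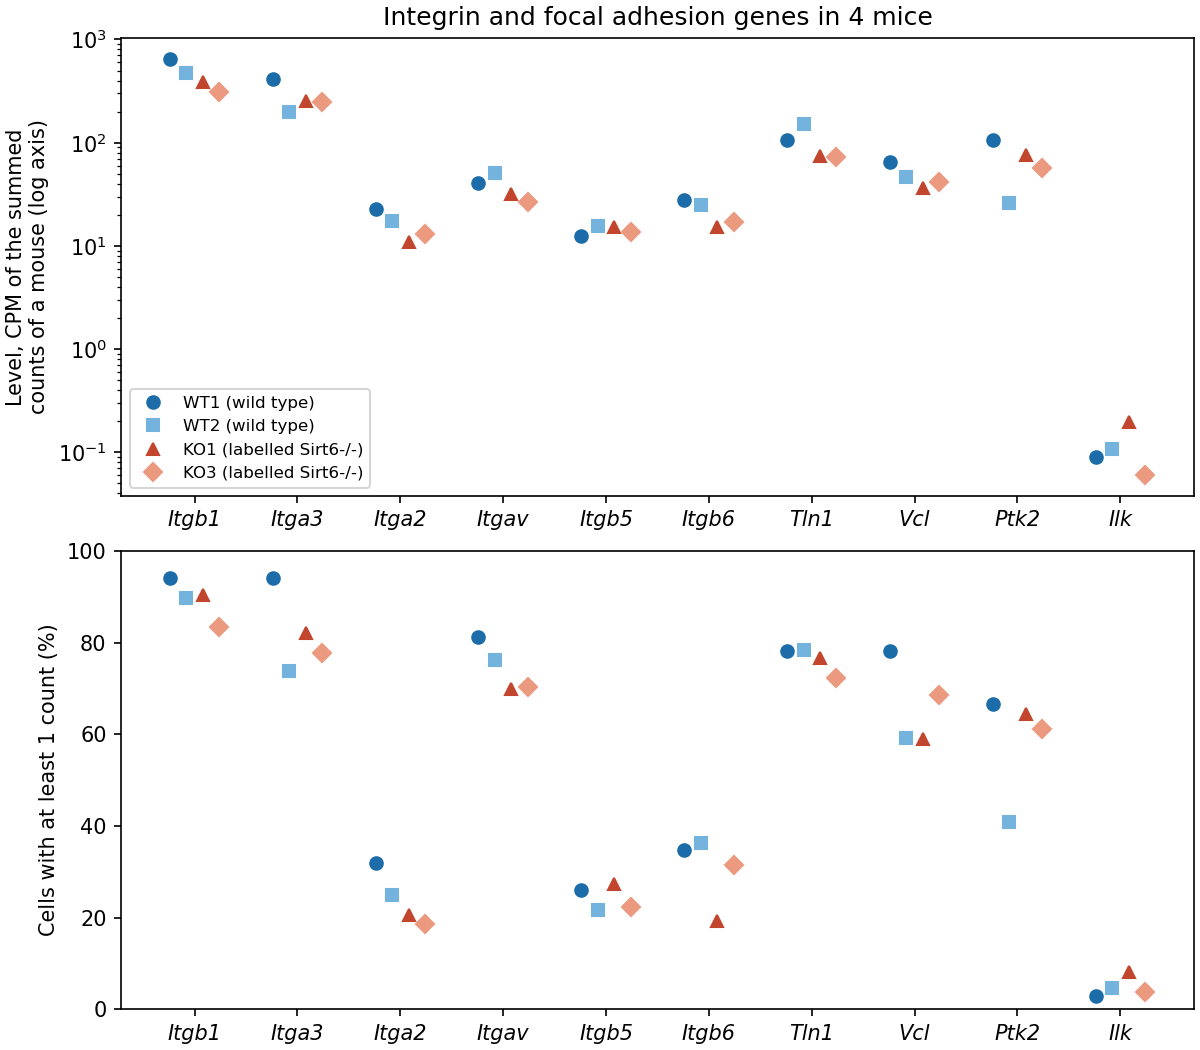
Levels (upper panel, CPM of the summed counts of a mouse, log axis) and shares of cells with at least 1 count (lower panel, percent) of the 10 genes, with 1 point per mouse and no error bars. Itgb1 and Itga3 are highest in every mouse, Ilk lies at 0.196 CPM or lower in all 4, and WT2 stands low for Ptk2.

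Detection in cells followed the levels only in part. Itgb1 had at least 1 count in 94.2% of cells of WT1 (exact Clopper-Pearson 95% interval 85.8% to 98.4%) and 89.8% of WT2, against 90.4% of KO1 and 83.3% of KO3 (70.7% to 92.1%). Itga3 was found in 94.2% of cells of WT1 and 73.9% of WT2, against 82.2% of KO1 and 77.8% of KO3. The intervals of WT1 (85.8% to 98.4%) and WT2 (63.4% to 82.7%) for Itga3 did not overlap, although these mice share a label. Thinning every cell to 500000 counts left these shares at 94.2%, 72.7%, 82.2% and 74.1%.

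At a cut of 1 count, Itgav was seen in more cells than Vcl or Ptk2 in every mouse despite its lower mean level per length. It was often at low counts: 81.2%, 76.1%, 69.9% and 70.4% of cells of WT1, WT2, KO1 and KO3 had at least 1 count, and 55.1%, 62.5%, 56.2% and 55.6% had at least 5. The order depended on the cut. At 5 counts, Vcl (71.0%) and Ptk2 (62.3%) were above Itgav in WT1, as were Vcl (61.1%) and Ptk2 (59.3%) in KO3. After thinning, Vcl was above Itgav in the same mice. The beta partners of Itgav were rarer. Itgb5 was found in 26.1%, 21.6%, 27.4% and 22.2% of cells, and Itgb6 in 34.8%, 36.4%, 19.2% and 31.5%. Where Itgb6 was present, the median cell with a count had 71.9 CPM in WT1 and 75.3 in WT2, against 44.7 in KO1 and 21.6 in KO3. In the mice labelled Sirt6-/-, single cells carried much of its total, with 25.3% of all Itgb6 counts of KO1 and 26.4% of those of KO3 in the highest cell. Of the non-zero values of Itgb5, 44.9% were not whole numbers, as an estimate gives where reads are divided between genes, so its level is uncertain. The other 9 genes had 0% such values.

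Tln1 was detected in 78.3%, 78.4%, 76.7% and 72.2% of cells of WT1, WT2, KO1 and KO3, a narrow range. Vcl was found in 78.3%, 59.1%, 58.9% and 68.5%. Ptk2, which encodes focal adhesion kinase, stood low in WT2, where 40.9% of cells had a count (30.5% to 51.9%), against 66.7% in WT1, 64.4% in KO1 and 61.1% in KO3. The median cell held a count for 5 of the 10 genes, and the range ran from 0 to 10.

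The pairing of chains was read cell by cell. Every cell with a count of Itga2 also had Itgb1, 69 of 69 cells, where 89.8% of all 284 cells had Itgb1. Cells with Itga2 also held more Itgb1. In WT1 the level of Itgb1 was 1019 CPM in the 22 cells with Itga2 and 474 CPM in the 47 without, in WT2 532 and 461, in KO1 650 and 318, and in KO3 567 and 241. The difference was small in WT2 and about as large as the lower level in the other 3 mice. The median number of detected genes was close in cells with and without Itga2, for example 7041 and 6884 in WT1.

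The contrast, as a ratio, was larger for Itga3 in all 4 mice. The level of Itgb1 was 685 CPM in the 65 cells of WT1 with Itga3 and 83.0 CPM in the 4 cells without, 568 and 214 in WT2, 447 and 77.4 in KO1, and 366 and 90.6 in KO3. The median number of detected genes was 7020 in cells with Itga3 and 5073 in those without in WT1, 5674 and 6141 in WT2, 6317 and 6441 in KO1, and 6773.5 and 6462.5 in KO3, so the cells without Itga3 were the poorer in genes in WT1 and KO3. Of the cells with Itga3, Itgb1 was found in 95.4% in WT1 and WT2 alike, in 96.7% in KO1 and in 92.9% in KO3. Cells without Itga3 still had Itgb1 in 50% to 75% of cases per mouse. Both chains were found together in 89.9%, 70.5%, 79.5% and 72.2% of cells of WT1, WT2, KO1 and KO3, against 88.7%, 66.3%, 74.3% and 64.8% had the chains been independent within a mouse.

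Itgav and Itgb1 were found together in 78.3%, 67.0%, 67.1% and 61.1% of cells, close to the 76.5%, 68.3%, 63.2% and 58.6% of independent chains. The level of Itgb1 was nevertheless higher in cells with Itgav than in those without, in every mouse. These levels were 723 and 348 CPM in WT1, 503 and 391 in WT2, 425 and 286 in KO1, and 351 and 211 in KO3. Cells without Itgav had fewer detected genes at the median in every mouse, for example 5788 against 7050.5 in WT1. Itgav with Itgb5 was found in 24.6%, 18.2%, 23.3% and 14.8%, against 21.2%, 16.4%, 19.1% and 15.6%. For Itgav with Itgb6 the shares were 27.5%, 31.8%, 13.7% and 24.1%, against 28.2%, 27.7%, 13.4% and 22.2%. Observed minus independent, the alpha-v pairs ran from -1.30 to 4.15 percentage points over the mice. The same difference ran from 1.11 to 7.41 points for Itga3 with Itgb1. For Itga2 with Itgb1 it ran from 1.85 to 3.09. This is the largest value possible with these shares, since every cell with Itga2 had Itgb1, so it cannot be ranked against the other pairs. The shares of the chains also bound the differences of the other pairs, and their ranges overlapped, so the other pairs are not ranked either.

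The 212 cells with a count of Itgav were split by the beta chains seen beside it. Itgb6 without Itgb5 was seen in 54 of them (25.5%), Itgb5 without Itgb6 in 42 (19.8%), and both in 16 (7.55%). The remaining 100 cells (47.2%) had neither, and of these 91 had Itgb1 and 9 had none of the 3 beta chains. Itgb3, the beta3 chain that alpha-v also uses, was listed at 0 in all 4 mice, and Itgb8 had between 3.59 and 13.2 CPM. Both were named after their values were seen.

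Among the alpha chains that can pair with beta1, Itga3 was the highest per length in 169 of the 255 cells with Itgb1 (66.3%) and Itga6 in 58 (22.7%). The share led by Itga3 was 83.1% in WT1 and 48.1% in WT2, against 66.7% in KO1 and 73.3% in KO3, and that led by Itga6 was 12.3%, 40.5%, 15.2% and 17.8%. Itgav led in 4 cells and Itga2 in 5. WT2 stood apart from the other 3 mice in this split, and Itga6 pairs mainly with beta4 in basal keratinocytes, so its rank does not give the share of alpha6-beta1.

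Over the cells of a mouse, the closest pair of the 10 genes was Itga3 and Itgb1. For these correlations, levels were log2(CPM + 1) per cell after the linear trends on total counts and on detected genes had been removed within each mouse. Cells of a mouse share plates and library preparation, so the correlations are descriptions. The Pearson r of Itga3 with Itgb1 was 0.53 over 69 cells of WT1 and 0.45 over 88 of WT2, and 0.56 over 73 of KO1 and 0.49 over 54 of KO3, with a mean of 0.51. The median over the 45 pairs of genes was 0.067, and 17 pairs were above 0 in all 4 mice.

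**Figure D2:**
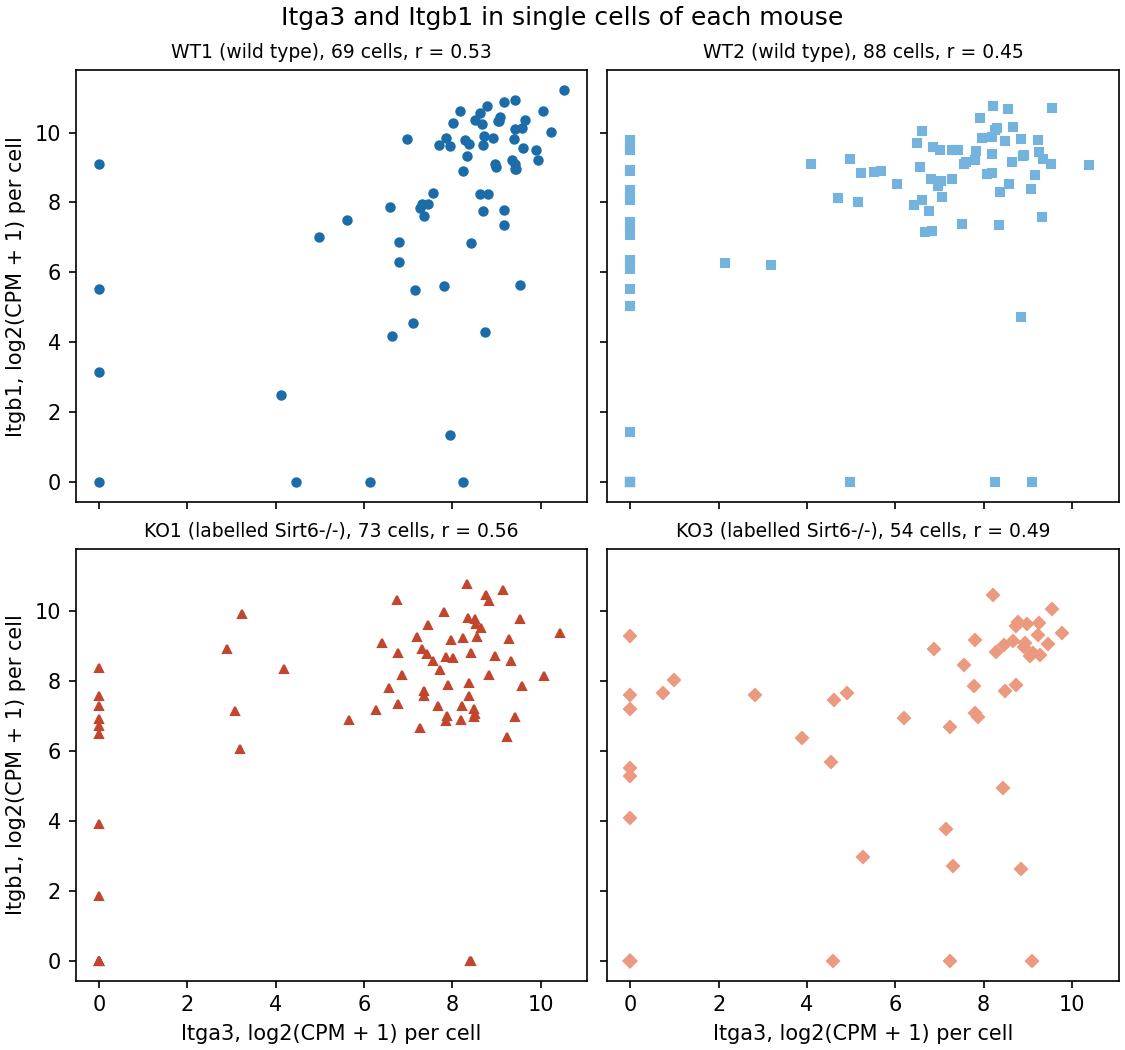
Itgb1 against Itga3 in single cells, both as log2(CPM + 1), with 1 panel per mouse and 1 point per cell; r is the Pearson correlation after trends on depth and detected genes were removed. In each mouse the cells high in Itga3 are mostly high in Itgb1, and points on the left edge are cells with no Itga3 count.

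Itgb1 was also above 0 in all 4 mice with Itga2 (mean r 0.26), Tln1 (0.24) and Ptk2 (0.15). Tln1 had a mean r of 0.26 with Itga3, but the 4 values ran from 0.024 in WT1 to 0.54 in KO3. Ptk2 and Tln1 had a mean r of 0.22, between 0.11 and 0.30. The genes of kinase and talin thus varied weakly with the beta1 chains.

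Itgav varied little with its partners. Its mean r was 0.062 with Itgb1, 0.033 with Itgb5 and 0.067 with Itgb6, and each of these pairs had at least 1 mouse below 0. With Itga3 its mean r was 0.20, above 0 in all 4 mice. Vcl had mean r values of 0.026 with Itgb1, -0.07 with Itga3 and -0.04 with Tln1, each with mice on either side of 0.

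**Figure D3:**
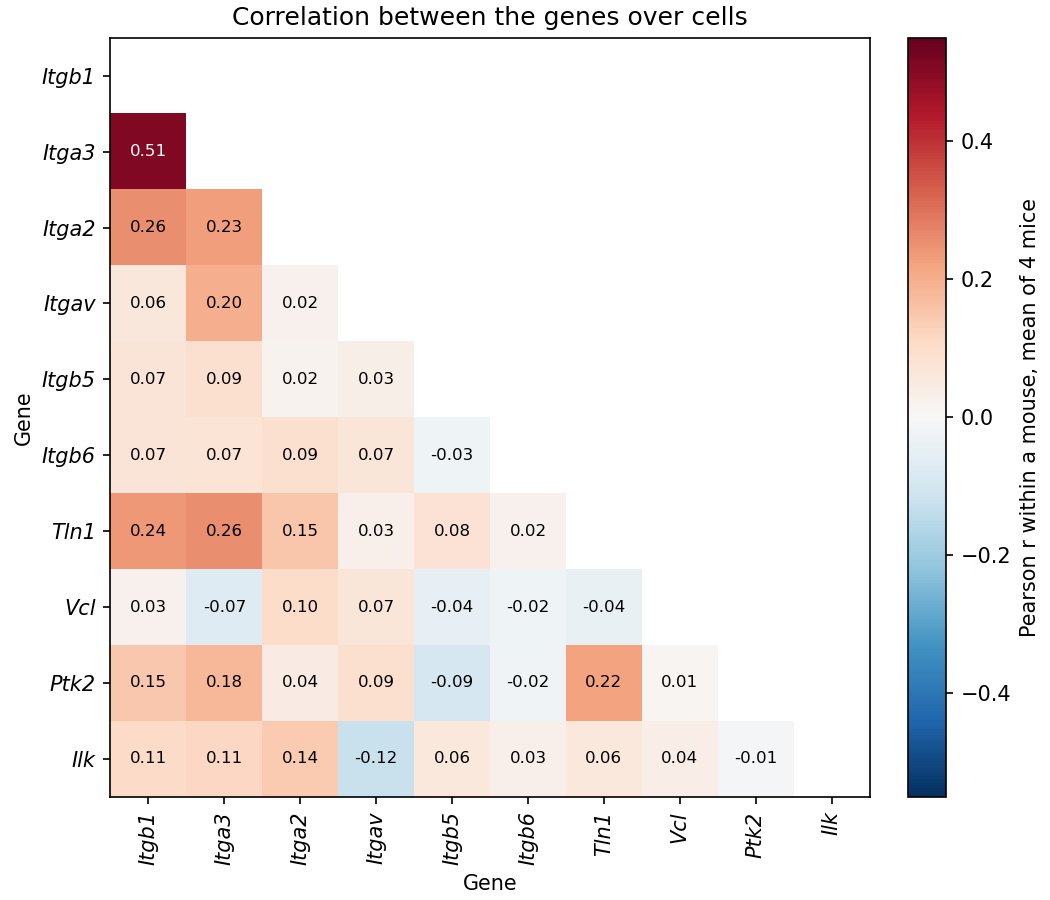
Mean over 4 mice of the within-mouse Pearson r for each of the 45 pairs of genes, with the value printed in each square and colour from blue (negative) to red (positive). Itga3 with Itgb1 stands out at 0.51, the next highest squares are Itga2 with Itgb1 and Tln1 with Itga3 at 0.26, Itgav reaches 0.20 with Itga3, and the lowest square is Itgav with Ilk at -0.12.

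The start regions of Itgb1 and Itga3, the pair that varied together, and of Vcl, which did not follow them, are shown for their sequence. Each runs 5′ to 3′ on the gene's own strand from 250 bases before to 50 bases after the RefSeq start on GRCm38.p6, at chr8:128685404-128685703 (plus), chr11:95076665-95076964 (minus) and chr14:20929148-20929447 (plus). Capitals mark matches, on either strand, to any of 6 motifs: the GC box GGGCGG bound by Sp factors, the AP-1 site TGANTCA, the TEAD site GGAATG, the ETS site CCGGAAG, the E-box CACGTG and the CArG box of serum response factor.
Itgb1: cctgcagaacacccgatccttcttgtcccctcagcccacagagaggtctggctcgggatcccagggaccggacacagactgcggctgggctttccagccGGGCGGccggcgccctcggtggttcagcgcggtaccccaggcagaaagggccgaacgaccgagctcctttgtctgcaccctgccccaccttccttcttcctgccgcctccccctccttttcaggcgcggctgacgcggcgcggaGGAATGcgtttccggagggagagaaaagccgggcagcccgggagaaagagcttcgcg
Itga3: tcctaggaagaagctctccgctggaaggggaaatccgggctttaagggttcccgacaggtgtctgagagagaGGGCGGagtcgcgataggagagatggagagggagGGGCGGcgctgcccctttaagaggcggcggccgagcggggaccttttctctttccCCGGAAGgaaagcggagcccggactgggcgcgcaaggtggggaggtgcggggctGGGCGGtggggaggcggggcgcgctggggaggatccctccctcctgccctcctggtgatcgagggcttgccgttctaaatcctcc
Vcl: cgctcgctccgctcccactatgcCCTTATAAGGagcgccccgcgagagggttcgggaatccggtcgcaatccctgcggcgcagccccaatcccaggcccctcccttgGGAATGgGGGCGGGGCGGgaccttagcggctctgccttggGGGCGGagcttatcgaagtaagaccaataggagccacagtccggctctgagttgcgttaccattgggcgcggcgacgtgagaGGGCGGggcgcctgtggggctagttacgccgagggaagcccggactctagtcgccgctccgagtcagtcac

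Itgb1 held 1 GC box and 1 TEAD match, Itga3 held 3 GC boxes and 1 ETS match, and Vcl held 4 GC boxes, 1 TEAD match and 1 CArG box, with 1 overlap between neighbouring matches in Vcl. Of 32851 RefSeq start windows of the same length, 35.7% held a GC box, 14.7% a TEAD match, 8.86% an ETS match, 7.81% an AP-1 match, 7.15% an E-box and 1.63% a CArG box. Windows were found for 9 of the 10 genes, and none for Ptk2. In the window nearest the annotated gene start, the other integrin genes Itga2, Itgav and Itgb5 held only GC boxes, and Itgb6 and Tln1 held none of the 6 motifs. These matches describe letters in a window and were not tested against any level.

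The genes whose cell-to-cell pattern was most like that of Itgb1 included 3 of the hemidesmosome, the junction that anchors basal keratinocytes. The ranking took in 8419 other genes, each seen in 20% or more of the cells in all 4 mice. The closest was Col17a1, the hemidesmosomal collagen XVII (mean r 0.68, from 0.62 in KO1 to 0.78 in KO3). Itgb4, the beta chain of the hemidesmosome, followed with 0.58, then Htra1 (0.57), a secreted serine protease, Cavin1 (0.54), a coat protein of caveolae, and Col18a1 (0.53), a basement membrane collagen. Wnt10a (0.53), a Wnt ligand, Plec (0.52), which ties hemidesmosomes to keratins, Krt5 (0.51), Itga3 (0.51, rank 9) and Cav1 (0.50), the main protein of caveolae, completed the 10 closest. All 10 were above 0 in all 4 mice. Itgb1 was further from Itga6 (0.48, rank 14), Tln1 (0.24, rank 241), Ptk2 (0.15, rank 661), Itgav (rank 2274) and Vcl (rank 3398).

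For Itga3, Col17a1 (mean r 0.61) and Itgb4 (0.54) also held the first and the second rank, and Itgb1 came at rank 4. For comparison, the hemidesmosome pair Itga6 and Itgb4 had a mean r of 0.50, about that of Itga3 and Itgb1. No gene came as close to Itgav. Its 5 closest genes, C1s1, Eogt, Mettl9, Agfg1 and Susd6, had mean r values between 0.22 and 0.25, and Itga3 stood at rank 16 with 0.20.

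Scores of fixed gene lists gave the same division. Against the mean z-score of 13 basal keratinocyte genes, which held none of the 10 genes, Itgb1 had an r of 0.73, 0.68, 0.64 and 0.66 in WT1, WT2, KO1 and KO3, and Itga3 of 0.65, 0.59, 0.56 and 0.67. Against 9 suprabasal genes, which mark cells leaving the basal layer, Itgb1 had -0.60, -0.62, -0.42 and -0.65, and Itga3 -0.50, -0.70, -0.66 and -0.73. Itga2 and Tln1 showed the same signs in all 4 mice at lower values, with mean r values of 0.27 and 0.26 for the basal and -0.37 and -0.31 for the suprabasal genes. Itgav, Itgb5, Itgb6 and Vcl each had mice on either side of 0 for the basal genes. Itga6, Itgb4 and Col17a1 are among the basal genes, and Itga6 was used in the sort.

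**Figure D4:**
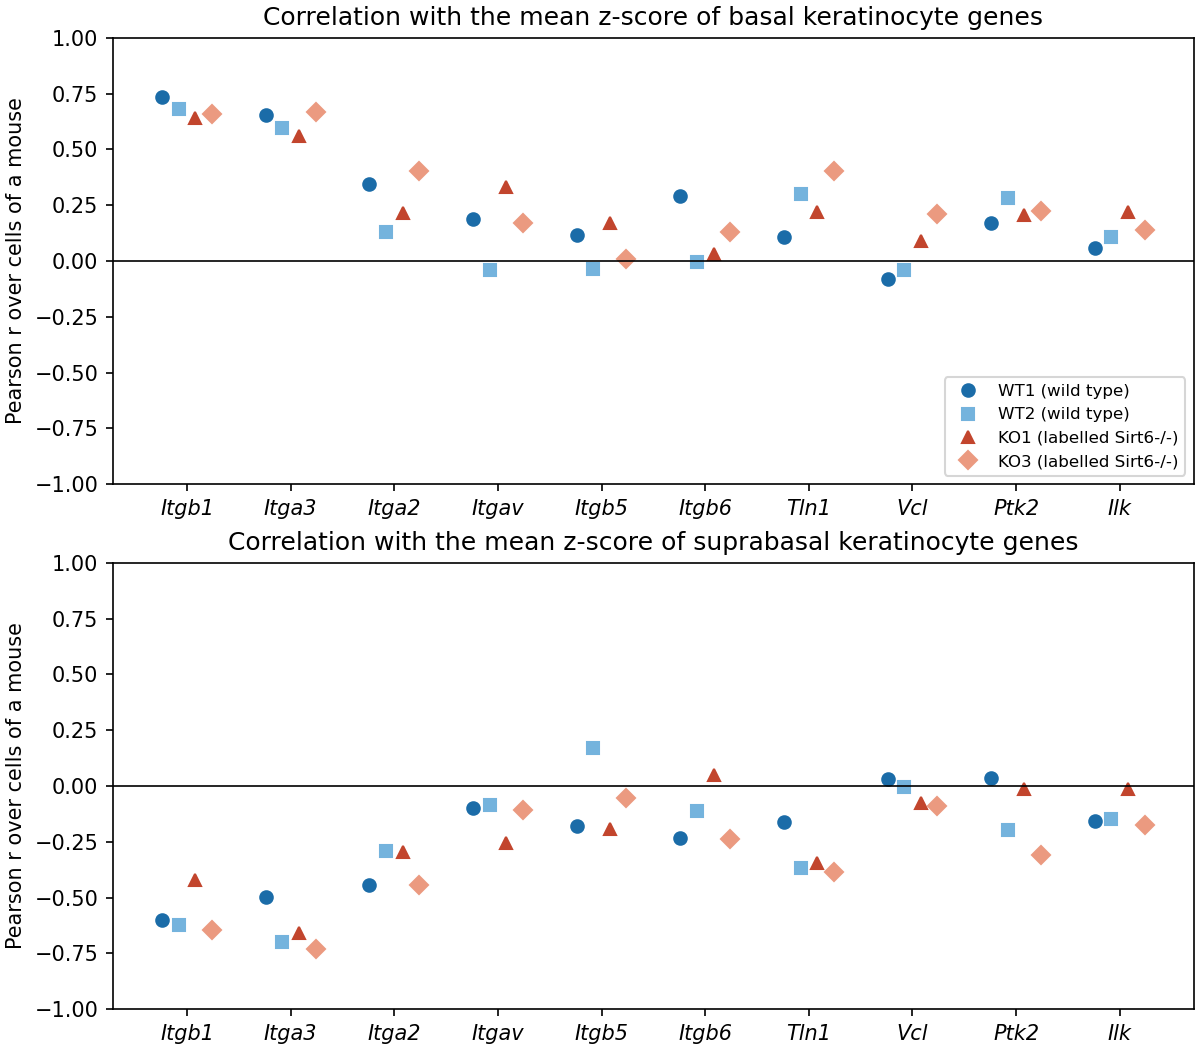
Pearson r over the cells of a mouse between each gene and the mean z-score of basal (upper panel) or suprabasal (lower panel) keratinocyte genes, with 1 point per mouse. Itgb1 and Itga3 lie at 0.56 or higher in the upper panel and at -0.42 or lower in the lower panel in every mouse, and Itgav, Itgb5, Itgb6 and Vcl spread around or near 0.

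Against 9 hemidesmosome and laminin-332 genes, 6 of which are also basal genes, the mean r was 0.67 for Itgb1, 0.64 for Itga3, 0.31 for Itga2 and Tln1 and 0.26 for Ptk2, each above 0 in all 4 mice. Against 30 further focal adhesion and actin linker genes, the mean r was 0.48 for Itgb1 and 0.44 for Itga3, 0.27 for Tln1, 0.24 for Itga2, 0.21 for Itgav, 0.16 for Vcl and 0.10 for Ptk2. Against 10 target genes of serum response factor and YAP, the mean r was 0.31 for Itgb1 and Itga3, 0.22 for Itga2, 0.21 for Vcl and 0.20 for Itgav, each above 0 in all 4 mice. The r of Vcl with the basal genes was above 0 in 2 mice. Against 5 TGF-beta response genes, Itgb1 had a mean r of 0.37, but Itgb6, whose integrin activates latent TGF-beta, had 0.081, with 2 mice above 0, and Itgav 0.098. Against 10 G2/M genes the mean r of the 10 genes ran only from -0.09 (Itgav) to 0.06 (Itgb1). Against 14 S phase genes, Itga3 had a mean r of 0.22, above 0 in all 4 mice but with 0.61 in KO3 and 0.23 or lower in the others, and KO3 also gave 0.48 for Itgb1 and 0.46 for Tln1. Vcl was below 0 with the S phase genes in all 4 mice.

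The comparison of the genotype labels asked whether these genes differed between the mice labelled Sirt6-/- and wild type. Most of the 10 genes lay lower in the mice labelled Sirt6-/-, but none passed the test. Of the 9 genes past the filter on low counts (Ilk was not), 0 had an adjusted p below 0.05 in edgeR's quasi-likelihood test, where 0% of all 16567 genes tested did. At an unadjusted p below 0.05 there were 848 genes, among them 3 of the 9, Itgb1, Itgb6 and Tln1, all lower, where 3.49% of all genes were lower at that level. DESeq2 called 149 genes (0.899%), none of them among the 9, for which its lowest adjusted p was 0.282 (Itgb1), and limma-voom called 0.

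In 6 of the 9 genes, Itgb1, Itga2, Itgav, Itgb6, Tln1 and Vcl, both mice labelled Sirt6-/- lay below both wild-type mice, where 18.7% of all genes tested did. The reverse held for 0 of the 9, where it held for 17% of all genes. The log2 difference was below 0 for 8 of the 9 (50.7% of all genes), and its median was -0.69, against -0.01 for all genes tested. Among the 8, Itgb5 was at only -0.0059 and was below 0 in 5 of 12 other settings, and Itga3 turned to 0.29 without WT1. The 9 genes are not independent of each other, since several vary together over cells.

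Itgb1 had 653 CPM in WT1 and 477 in WT2, against 383 in KO1 and 309 in KO3. The groups did not overlap, and the gap between WT2 and KO1 was smaller than that between the wild-type mice. The log2 difference was -0.74 ± 0.231 (SE), or 1.67 times higher in wild type, with an edgeR unadjusted p of 0.0283 and an adjusted p of 0.881. Among its alpha partners, Itga2 had 22.9, 17.4, 10.9 and 12.9 CPM in the same order, with a log2 difference of -0.78 ± 0.326 (edgeR adjusted p = 0.965). Itga3 had 415, 196, 254 and 249 CPM. Here WT2 was the lowest of the 4 mice and WT1 the highest, so the groups overlapped, and the log2 difference of -0.30 ± 0.371 turned to 0.29 without WT1 and was -0.71 without WT2.

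Itgav had 40.4 CPM in WT1 and 51.3 in WT2, against 31.8 in KO1 and 26.7 in KO3, with a log2 difference of -0.69 ± 0.273 (edgeR adjusted p = 0.965). Of its beta partners, Itgb6 had 27.8, 25.2, 15.3 and 17.1 CPM, with mice of a label close together and a log2 difference of -0.74 ± 0.274 (edgeR unadjusted p = 0.0479, adjusted p = 0.965). Itgb5 had 12.6, 15.5, 15.3 and 13.5 CPM. Its 4 mice lay within a narrow band in which the labels were mixed, and its log2 difference was -0.0059 ± 0.341.

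Tln1 had 107 CPM in WT1 and 151 in WT2, against 74.5 in KO1 and 72.4 in KO3. The log2 difference was -0.86 ± 0.273, or 1.81 times higher in wild type (edgeR unadjusted p = 0.0300, adjusted p = 0.901). Vcl had 65.4, 47.0, 36.1 and 41.5 CPM and a log2 difference of -0.56 ± 0.258 (edgeR adjusted p = 0.965). Ptk2 had 106, 26.1, 76.9 and 57.0 CPM: WT2 lay far below the other 3 mice, and the log2 difference of 0.0051 ± 0.669 became 1.28 without WT1 and -0.66 without WT2.

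**Figure D5:**
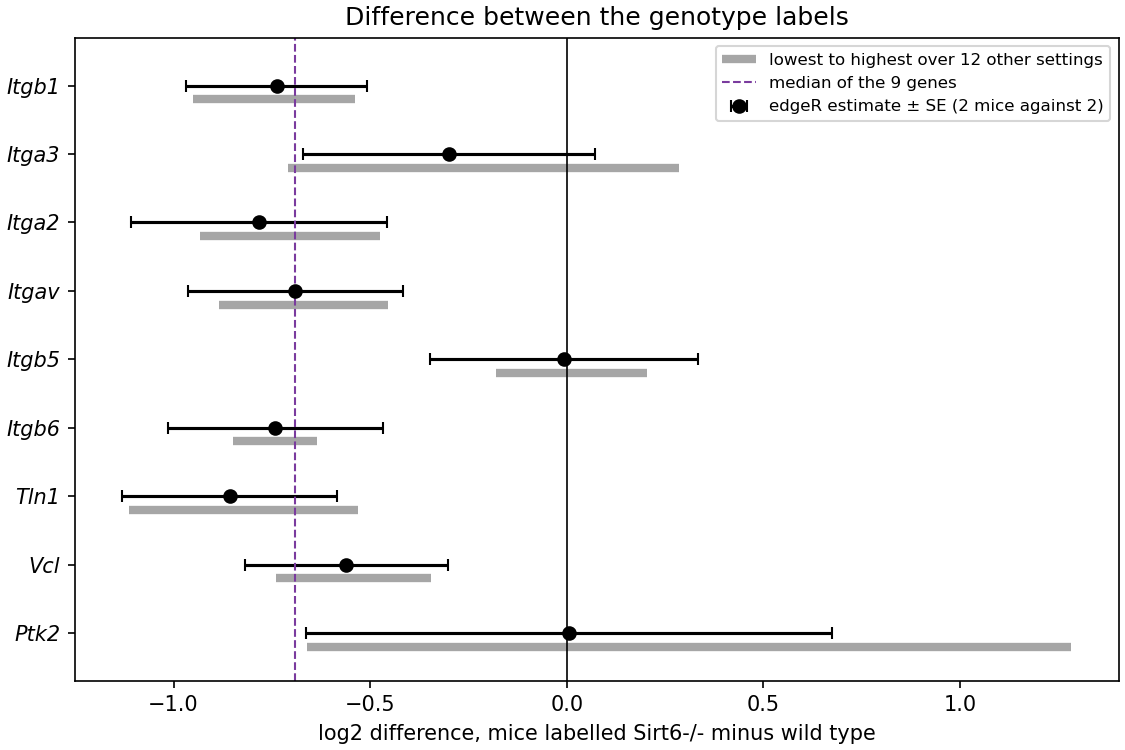
log2 difference between the mice labelled Sirt6-/- and wild type for the 9 genes tested, as the edgeR estimate with its SE (black) and the lowest to highest value over 12 other settings, the mice left out in turn included (grey); the dashed line is the median of -0.69. Grey bars of Itgb1, Itga2, Itgav, Itgb6, Tln1 and Vcl stay left of 0, and those of Itga3, Itgb5 and Ptk2 cross it.

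No difference in the shares of cells with both chains of a pair passed the exact permutation test over the 4 mice, which cannot give a p below 0.333 here. The pair of Itgav with Itgb6 was found in 29.7% ± 3.03 (SD, n = 2 mice) of wild-type cells and 18.9% ± 7.34 of cells of mice labelled Sirt6-/- (two-sided exact permutation p = 0.333, adjusted over 5 pairs 0.833). Itga2 with Itgb1 was found in 28.4% ± 4.87 and 19.5% ± 1.44 (exact permutation p = 0.333, adjusted 0.833). For Itga3 with Itgb1 the shares were 80.2% ± 13.7 and 75.8% ± 5.11 (exact permutation p = 1, adjusted 1). Itgav with Itgb1 differed by -8.54 percentage points and Itgav with Itgb5 by -2.36 (exact permutation adjusted p = 0.833 for either). Leaving out each mouse in turn, the difference ran from -14.1 to -2.93 points for Itgav with Itgb1, from -16.0 to -5.60 for Itgav with Itgb6 and from -12.4 to -5.47 for Itga2 with Itgb1. The smallest difference for Itgav with Itgb1 came without WT1. With all 4 mice and detection set at 5 counts, this pair differed by -4.07 points.

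Beside these values, most basal genes lay lower and most suprabasal genes higher in the mice labelled Sirt6-/-. Over all genes tested, 18.7% lay lower and 17% higher with groups apart, and 50.7% had a log2 difference below 0. All 14 basal keratinocyte genes were tested, and 13 lay lower, 10 with groups apart, with a median log2 difference of -0.63, and their summed level ran from 37704 to 48519 CPM in wild type and from 32052 to 35973 in the mice labelled Sirt6-/-. In the order WT1, WT2, KO1, KO3, Krt5 had 6125, 8379, 4995 and 3834 CPM and Col17a1 1645, 3036, 1208 and 857. Krt14, the most abundant of them, overlapped between the labels with 23382, 30136, 20890 and 26456 CPM, as did Sfn with 1974, 2223, 1802 and 2504. Of 13 suprabasal genes tested, 11 lay higher and 5 of these with groups apart, with a median of 0.47, and their summed level was 2397, 3137, 2219 and 4736 CPM. The list as a whole was thus high in KO3 and not in KO1. The 2 suprabasal genes that lay lower were the keratins Krt1 and Krt10, named after their values were seen. Krt1 had 216, 1034, 167 and 299 CPM (log2 difference -1.49) and Krt10 had 77.4, 531, 29.7 and 166 (-1.70). Both were highest in WT2 and overlapped between the labels, so the suprabasal genes did not move together. edgeR called 0 genes of either list. The part of these differences between basal and suprabasal genes in the lower levels of Itgb1, Itga2 and Tln1 was not tested, and fewer basal cells and less RNA per cell cannot be told apart in the sums.

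The other genes of the pathway were taken from lists, and edgeR called 0 genes of each. The counts of this and the next 3 paragraphs stand beside 18.7% lower and 17% higher with groups apart over all genes tested. Of 9 hemidesmosome and laminin-332 genes, all lay lower, 6 with groups apart, with a median log2 difference of -0.73, close to that of the 9 integrin and adhesion genes. Itgb4 had 883, 1213, 638 and 525 CPM (log2 difference -0.89 ± 0.266), and Plec 550, 783, 507 and 323. This list shares several genes with that of basal keratinocytes. Of 20 other integrin chains, 9 passed the filter, 2 lay lower with groups apart (Itgb4 and Itga6) and 2 higher (Itga7 and Itgb7), with a median of 0.18. In either direction, 2 of 9 is near the share of all genes. Itga6 had 263, 220, 138 and 176 CPM, and Itga7, the laminin-binding chain known from muscle, had 17.5, 2.92, 20.8 and 28.3. Itga5, the fibronectin receptor chain, had 22.9, 24.1, 29.4 and 17.2 CPM, with the labels mixed.

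Of 37 other focal adhesion and actin linker genes tested, 28 lay lower and 9 higher, 15 lower and 2 higher with groups apart, and the median log2 difference was -0.20. Pxn, the scaffold paxillin, had 61.3, 59.2, 37.0 and 25.3 CPM (log2 difference -0.99 ± 0.272, edgeR unadjusted p = 0.0183, adjusted p = 0.831). Sorbs3 (vinexin), which binds vinculin, had 4.23, 8.91, 0.612 and 2.00 CPM. The 3 most abundant genes of the list differed less: Actn4, an actin crosslinker, had 1046, 905, 768 and 929 CPM, Tns4, a tensin without the actin-binding region, 811, 939, 666 and 512, and Flna, filamin A, 612, 479, 475 and 495.

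Of 18 tested genes of integrin ligands and latent TGF-beta, 15 lay lower and 6 of these with groups apart, with a median log2 difference of -0.57. Tnc, which encodes tenascin-C, a ligand of alpha-v-beta6, had 166 CPM in WT1 and 288 in WT2, against 48.0 in KO1 and 40.8 in KO3. The labels were well apart, with a log2 difference of -2.40 ± 0.372 (edgeR unadjusted p = 0.00203, adjusted p = 0.809). Npnt, nephronectin, a matrix ligand, had 39.2, 5.54, 4.87 and 0.799 CPM, most of it in WT1. Lamb3, a chain of laminin-332, the ligand of alpha3-beta1, had 345, 412, 203 and 244 CPM (log2 difference -0.80 ± 0.234). Thbs1, thrombospondin 1, had 439, 1867, 589 and 208 CPM and Ccn1, a matrix-bound integrin ligand, 386, 905, 373 and 266, each highest in WT2.

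Of 20 tested genes of integrin trafficking and partner proteins, 10 lay lower and 10 higher, with a median log2 difference of -0.03. Cav1 had 331, 345, 130 and 72.7 CPM (log2 difference -1.78 ± 0.334, edgeR unadjusted p = 0.00438, adjusted p = 0.809), and it was also among the 10 genes nearest to Itgb1 over cells. The tetraspanins Cd9 and Cd81 had between 1524 and 2106 and between 690 and 911 CPM. WT2 also stood high for immediate early genes, whose summed level was 28573 CPM there against 12190 to 13382 in the other 3 mice. The part of that state in the values of WT2 for Itga3 and Ptk2 was not tested.

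For KO1 and WT2 a few cells lay on another plate than the rest. The 8 cells of KO1 on plate 2 had 192 CPM of Itgb1 and 2.58 of Vcl, against 408 and 40.4 in the 65 cells on plate 1, and the 7 cells of WT2 on plate 3 had 310 and 1.68, against 493 and 51.1 in the 81 cells on plate 4. Plate 2 also held all cells of KO3, where Vcl was 41.5 CPM, and plate 3 all cells of WT1, where it was 65.4. Itga2 had a count in none of these 15 cells. Without these 15 cells, 6 genes lay lower with groups apart, all 6 of them shared with the count over all cells. The share of all genes without these cells is not given.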

How the data were processed

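The expected counts per gene and cell were made by the authors, who used STAR and RSEM with the mm10 (GRCm38) genome per the submitters' processing notes, and were analysed as deposited. Tool versions, annotation release and strand setting were not given in the sources used here. The protocol names no molecular identifiers, so counts are reads. The intervals on shares cover only the sampling of cells within a mouse. Of 54247 gene IDs, 54156 matched GENCODE M21. No cell was left out and no doublet caller was run.

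Counts were summed per mouse, rounded and compared between genotype labels with edgeR 4.0.16 in R 4.3.3 (TMM, filterByExpr, glmQLFTest, two-sided, Benjamini-Hochberg, 2 mice against 2). The SE of a log2 difference was computed back from the edgeR test, as its absolute value divided by the square root of the F statistic. It is therefore not a separate measure of the spread between mice. DESeq2 1.42.0 and limma-voom 3.58.1 were alternatives. Adjusted p-values of genes run over the 16567 genes tested. A gene was detected at 1 count. Levels between genes were divided by the union of exons. For correlations, linear trends on log10 total counts and detected genes were removed from log2(CPM + 1) within each mouse. Promoter windows came from RefSeq (GRCm38.p6). The genotype script was tested on simulated data with far less spread between mice than here and with larger changes than these genes had. That test checks the running of the script and does not give its power or error rate on these data.

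The 10 genes and all lists were chosen with earlier results of these data known. From each list the text takes its names from the 3 genes highest in mean CPM and up to 2 with the largest difference among those with groups apart, and, as nearest genes, 10 for Itgb1 and 5 for Itgav. A gene counted in several lists was described once.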

Additional observations from a re-analysis of the deposited data

How the results depend on the processing

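Under edgeR 0 genes were called, against 149 with DESeq2 and 1 with a filter of 10 CPM in 2 mice. The other 10 settings tried gave 0. The log2 difference of Itgb5 lay around 0 and turned positive with DESeq2 (0.0038), limma-voom (0.0034), RLE size factors (0.0038), thinned cells (0.0013) and the mean log2 level per cell (0.019). Leaving out each mouse in turn, it ran from -0.18 to 0.20, that of Itga3 from -0.71 to 0.29 and that of Ptk2 from -0.66 to 1.28. The difference in the share of cells with Itga3 and Itgb1 ran from -14.0 to 5.38 percentage points, and that with Itgav and Itgb5 from -6.60 to 1.88. The causes were not tested. Itgb1, Itga2, Itgav, Itgb6, Tln1 and Vcl stayed below 0 in all 12 settings. The count of genes lower with groups apart, whose alternatives were chosen after seeing the data, was 6 without TMM scaling, with thinned cells and without cells on minor plates. It was 5 under the mean per cell, which lacked Vcl. The share of all genes under these settings is not given, so these counts have no background beside them. With a mouse left out, 1 mouse is set against 2 and groups come apart more easily, so such counts are not compared with that over all mice. With the longest transcript as length, Itgav, Itgb6, Ptk2 and Vcl stood higher by more than their SD over mice, and with the median over cells Itga2, Itgb5, Itgb6 and Ilk were at 0, Itgav at 0.748 and Vcl at 2.67 CPM per kilobase. A lone mouse left in a group was assumed to vary like the others. The common biological coefficient of variation was 0.723 with 2 mice per label, and a level resting on few cells is imprecise. No paired analysis was possible because the labels share only 1 replicate number.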

Other observations

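Beyond the integrin and adhesion genes, lists tied to their signals were read from the same fit, and edgeR called 0 genes in each. Over all genes tested, 18.7% lay lower and 17% higher with groups apart. Of 11 TGF-beta response genes tested, 10 were below wild type in the mice labelled Sirt6-/-, 5 with groups apart, with a median log2 difference of -0.69. Tgfbr1, the type I receptor, had 35.8 CPM in WT1 and 48.2 in WT2, against 11.7 in KO1 and 17.6 in KO3 (edgeR unadjusted p = 0.0108, adjusted p = 0.809), and Tgfbi, a matrix protein induced by TGF-beta, had 515, 1099, 423 and 436. Ltbp1, which holds latent TGF-beta in the matrix, had 167, 486, 163 and 103, and was picked after its values were seen. Of 15 tested targets of serum response factor and YAP, 9 lay lower and 6 higher, with a median of -0.20. Actb had 3635, 4135, 3387 and 4631 CPM, with the labels mixed.

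Of 18 immediate early genes 15 lay lower, with a median log2 difference of -0.71, and the sum was highest in WT2. Of the cell cycle genes, 11 of 16 G2/M genes and 10 of 15 S phase genes lay higher, with medians of 0.33 and 0.18. With groups apart, 0 G2/M genes were higher and 1 lower (Cenpf), and 2 S phase genes were higher. The summed G2/M level was 1326, 934, 916 and 1973 CPM in the same order, highest in KO3 and lowest in KO1. Markers of muscle and fat summed to 1.28 and 5.31 CPM in wild type and to 11.5 and 44.3 in KO1 and KO3, of which Fabp4 made 9.36 and 37.9.

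By mean r over the single cells of a mouse, Itgb1 was nearer to Cavin1 and Cav1, genes of caveolae, than to Itga6 (0.54 and 0.50 against 0.48). For Cav1 the order reversed in KO1, with 0.39 against 0.46 for Itga6. Cells were sorted on the product of Itga6, and the part of the sort in its r was not tested. Cav1 was also among the genes with the largest difference between the labels in its list.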
